A study of Pleurotus ostreatus with 53 samples.

Results

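In the oyster mushroom Pleurotus ostreatus, 360 genes carried dense CG methylation in mycelium of the dikaryon N001 although no listed transposable element (TE) copy lay within 5 kb of them. They were chosen by 2 measures. The distance to the nearest of 1051 listed TE copies on the same scaffold had to exceed 5000 bp, and the mean mCG of the 3 N001 mycelium libraries had to be at least 50%, where mCG is the methylated fraction of cytosines in the CG context of a gene. Of 11656 genes with methylation values, 10319 lay beyond that distance (TE-distant genes hereafter), and the 360 members made up 3.49% of these. The N001 mycelium methylation levels therefore chose the members, and any contrast with them is given as a description without a test.

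The study compared 6 groups across the life cycle: mycelium of the monokaryotic strains PC15 and PC9, mycelium of N001_HyB (HyB hereafter), the dikaryon formed by mating PC9 with PC15, and the dikaryotic strain N001 as mycelium, as primordium and as fruitbody, spelled N0001 in one label field. A monokaryon has 1 kind of nucleus, whereas a dikaryon holds an unlike pair, so a value from a dikaryon averages over both. Each group had 3 biological replicates per the series description, with mRNA, small RNA and bisulfite libraries. The bisulfite data of the primordium had 2 of these, and 53 libraries were analysed in all. No genotype, treatment or age beyond the strain and the tissue was given in the labels, and nothing more was said on separate cultures, so p-values measure the spread between these samples.

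CG methylation in fungi is best known from transposable elements, where it accompanies a lack of transcription, and most methylated DNA of mushrooms lies in repeats. Small RNAs cut from double-stranded RNA guide silencing in many fungi. In a mushroom the mycelium grows as threads, aggregates into primordia and these develop into fruitbodies. The genes are known here by number only, and the files and the reference table pair none of these numbers with a name, a function or a sequence.

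The methylation levels of TE-distant genes in N001 mycelium had a main peak near zero and a second, smaller one above the bound. Of the genes with a value, 9637 had an mCG under 1% and 131 had 1 to under 10%. In steps of 10 points from 10% on, there were 39, 39, 54 and 54 genes below the bound, and 77, 110, 98, 67 and 8 above it. No gap in the values lay at the bound. The genes just inside the bound were 1053480 at 50.004%, 169263 at 50.04% and 154782 at 50.07%. Just outside lay 165721 at 49.89%, 1014958 at 49.92% and 1102605 at 49.98%. On the distance, 1015256 at 5012 bp, 1044883 at 5050 bp and 1081590 at 5075 bp were the closest members, and 169434 at 4889 bp, 1033462 at 4997 bp and 1021127 at 4999 bp were the nearest methylated genes left out. Closer to TE copies the same methylation was more frequent, at 168 of 441 genes (38.1%) within 1 kb and 173 of 896 (19.3%) from 1 to 5 kb.

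The members lay on all 12 scaffolds that held genes, unevenly. Scaffold 7 held 78 of them, 9.25% of its TE-distant genes, and scaffold 12 held 39 of 59 (66.1%), whereas scaffold 5 held 6 of 1167 (0.514%). Of the members, 90 of 360 (25%) lay within 100 kb of the first or last listed feature of a scaffold, against 5.25% of the 9954 other TE-distant genes. Their median distance to a TE copy was 22.4 kb, against 45.5 kb in the others, and 84 members (23.3%) lay within 10 kb of one. The nearest copy was of the Gypsy class for 250 members (69.4%, with 75.4% of copies in that class) and a LINE for 39 (10.8%, with 3.81% of copies). Neighbouring members can share a nearest copy, and the classes nearest to the other TE-distant genes were not counted, so no enrichment is read from these shares. The median gene length was 1220 bp in the members and 1430 bp in the others.

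Most members stood next to another. In gene order along the scaffolds, 317 of 360 (88.1%, exact binomial 95% interval 84.2% to 91.2%) had a member as a direct neighbour. Members made up 3.09% of all genes and 3.49% of TE-distant genes. Among the other TE-distant genes, 130 (1.31%) were next to a member, a share that the clustering itself keeps low. Members of 1 run are neighbours and not independent, so the interval is too narrow. The 360 genes formed 115 uninterrupted runs, of which 43 held 1 gene and 28, on 10 scaffolds, held 5 or more, with 202 members in them. Beyond the run ends, the next gene was under 10% mCG at 82 ends and from 10 to under 50% at 75. At 55 ends it was methylated to at least 50% too, with a TE copy within 5 kb of it. A scaffold ended at 14.

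The 3 longest runs differed in how even their levels were and in how sharply they ended. The longest held 13 genes over 37.8 kb, from gene 154429 to gene 165513, on scaffold 2 at 1665588 to 1703352 (positions as the methylation table gives them, genome build not given in the sources used here). Its median mCG was 19.8% in PC15, 76.4% in PC9, 52.4% in HyB and 75.3% in N001 mycelium. The gene before it, 165485, had 24.4% in N001 mycelium, and the gene before that, 165484, had 0.257%. Gene 165514 after it had 64.1% and lay 2012 bp from a TE copy.

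The next run held 11 genes over 37.4 kb on scaffold 8 at 2555181 to 2592585, from 1015978 to 170026. There the median was 18.4% in PC15, 30.6% in HyB, 71.3% in N001 mycelium and 91.5% in the 6 genes with a PC9 value. The genes after it went the other way between the monokaryons. Gene 160882 had 36.4% in PC15 and 0.371% in PC9, and 1108003 had 40.5% and 0.549%. The other run of 11 lay over 57.5 kb on scaffold 11 at 1506173 to 1563663, from 171886 to 1087148, and had 53.7% in PC15, 69.8% in HyB and 79.9% in N001 mycelium. Its levels were uneven in PC15. The first 6 genes had 53.7% to 94.9% there and the last 5 had 28.2% to 42.9%, with a step from 94.9% in 1109643 to 42.9% in its neighbour 1087144. The run ended between 1087148 at 76.8% and 1087149 at 0.246% in N001 mycelium.

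**Figure D1:**
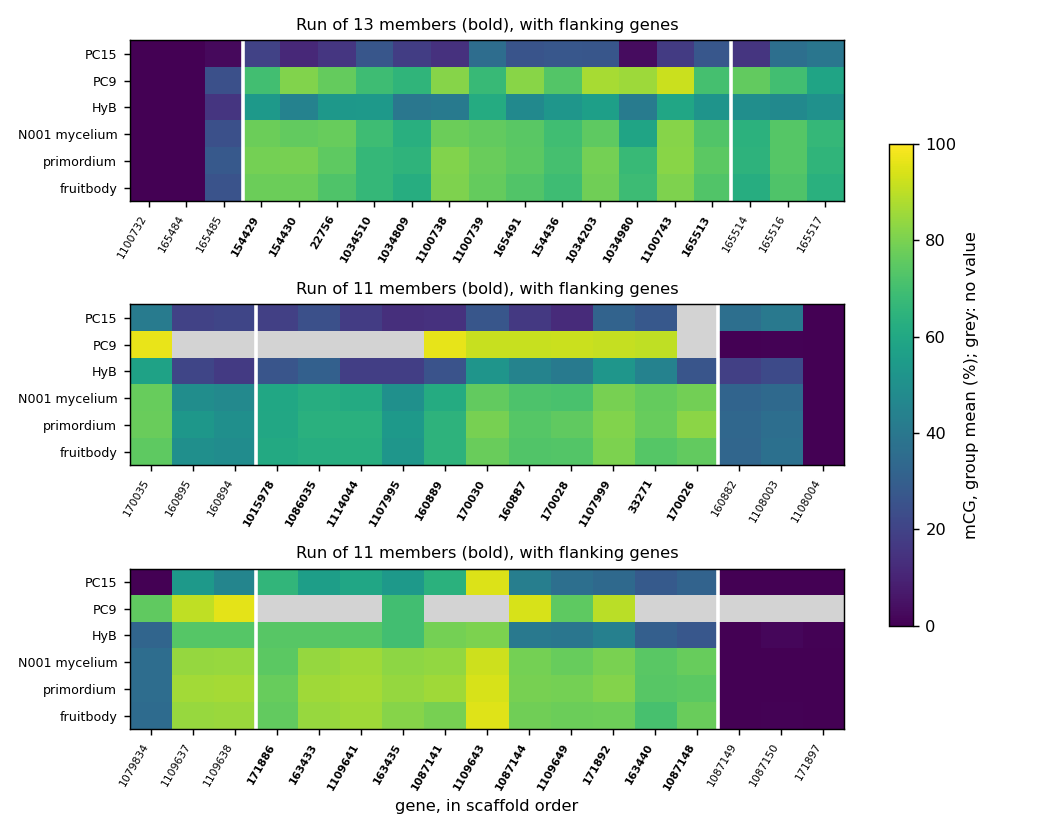
Mean CG methylation (%, colour scale from 0 to 100) of each gene in the 3 longest runs of members (bold gene numbers, between white lines) and of up to 3 genes on each side, in scaffold order, with 1 row per group and grey for genes without a value. In the first and second run the PC15 and HyB rows are darker than the N001 rows. In the third the HyB levels are below those of N001 mycelium in all genes, and the PC15 levels in all but gene 1109643. That gene has 94.9% in PC15 and 92.2% in N001 mycelium. The gaps are widest in the last 5 genes.

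In PC15 the median difference between neighbouring members was 5.60 percentage points, against 13.5 points between any pair of members. In HyB it was 6.12 against 20.4 points, and in PC9 it was 8.42 against 16.5 points. These values are descriptions, since neighbours share a library and a locus.

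Across the groups the members were methylated in 4 of the 6 and less so in PC15 and HyB. The median over members was 25.4% in PC15, 71.9% in PC9, 35.9% in HyB, 69.4% in N001 mycelium, 71.9% in primordium and 71.0% in fruitbody. The medians of single libraries ran from 24.2% to 26.1% in PC15, from 71.8% to 72.4% in PC9 and from 34.9% to 36.7% in HyB. In the N001 tissues they ran from 68.0% to 73.0%, so the libraries of PC15, of HyB and of the other groups did not overlap, while PC9 lay within the range of N001. At least 50% was reached by 42 of 359 members in PC15, 164 of 200 in PC9 and 104 of 360 in HyB, but by 357 in primordium and 354 in fruitbody. Other TE-distant genes had medians of 0.21% to 0.23% in every group. Methylated genes within 1 kb of a TE copy had 26.8% ± 1.42 in PC15 and 38% ± 1.1 in HyB (SD of library medians, n = 3), close to the members.

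A PC9 value was missing for 160 of the 360 members. Of these genes, 159 had a mean under 1 RPKM of mRNA in PC9, and whether missing methylation reflects a missing or unlike sequence in PC9 or low coverage was not tested. RPKM are reads per kb of gene and per 1000000 reads of the library. Members without a PC9 value had a median mCG of 26.2% in HyB and 26.7% in PC15, whereas members with one had 42.2% in HyB and 24.5% in PC15.

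**Figure D2:**
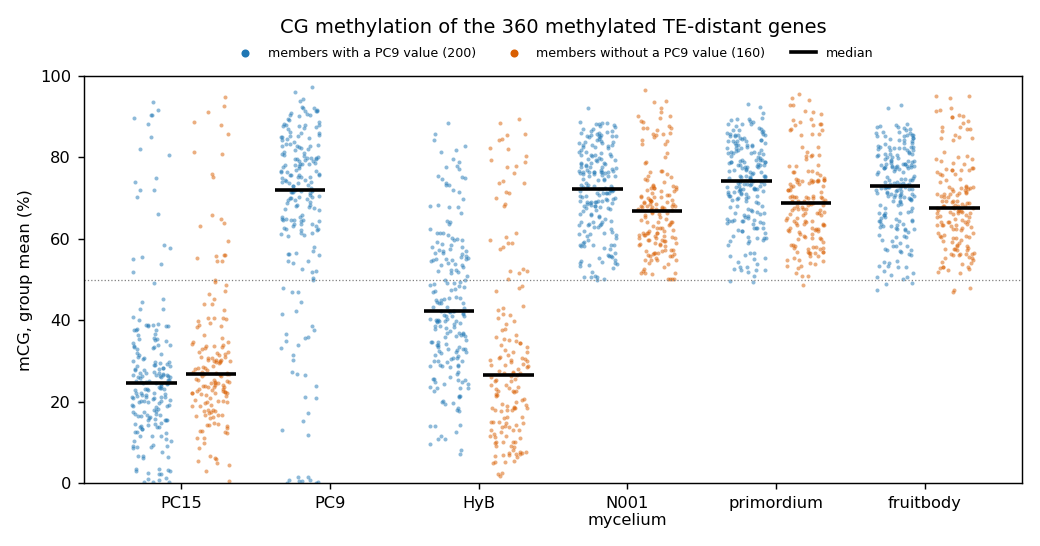
Mean CG methylation (%) of each of the 360 members (points) in the 6 groups, with the median as a black bar, for members with a PC9 value (blue) and without (orange). In N001 all lie at or above 47.1%, the bound at 50% in N001 mycelium being the selection rule, while most lie below 50% in PC15.

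Between the monokaryons, which the selection did not use, 200 members could be tested with limma. Of these, 174 were more methylated in PC9 and 17 less, at a Benjamini-Hochberg adjusted p under 0.05 over 11140 genes. Of all genes tested, 6.47% were higher and 2.56% lower. The median difference over the 200 members was 44.9 percentage points, against 0.00 over all genes. The members were picked for a high level in N001, so they are no even sample of genes and the count describes them only.

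Single genes differed by over 80 points. Gene 154588 had 0.481%, 0.37% and 1.48% in the 3 PC15 libraries and 83.4%, 84.2% and 85.4% in those of PC9. The difference was 83.5 points with a standard error of 2.20 (limma, adjusted p = 2.72e-14). The largest difference was that of gene 1035322, which had 0.2%, 0% and 3.5% in PC15 and 75.4%, 92.0% and 100% in PC9 (87.9 ± 8.71 points, SE, limma adjusted p = 7.67e-07). No PC15 library of either gene overlapped with a PC9 library.

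The opposite pattern was held by few members. Gene 1105178 had 80.3%, 81.6% and 79.6% in PC15 and 1.80%, 0.172% and 0.414% in PC9 (difference -79.7 points, limma adjusted p = 1.17e-13). Gene 1102576 had 91.7%, 90.2% and 89.6% in PC15 and 5%, 17.7% and 12.9% in PC9. Gene 1109171 had 52.0%, 51.6% and 51.8% against 2.22%, 0.333% and 2%. In HyB these 3 genes stayed near PC15 or above it, at 73.6% to 82.4%, 86.2% to 92.6% and 58.7% to 63.6%.

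With both parents at hand, 17 of the 200 members were at or above 50% in both monokaryons, 17 were so in PC9 with under 10% in PC15, and 2 were so in PC15 with under 10% in PC9. None was under 10% in both. The other 164 had at least 1 parent at a level in between.

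HyB carries the nuclei of both monokaryons, and most of its levels lay between theirs. Of the 200 members with all values, HyB was between PC15 and PC9 in 164, below both in 23 and above both in 13. The difference from the mean of PC15 and PC9 had a median of -2.63 points and quartiles of -9.45 and 4.66. Of 200 members tested with limma, 144 were more methylated in HyB than in PC15 and 13 less, with 5.73% and 1.98% of all genes tested so called. Against PC9, 18 were more methylated and 166 less, with 2.12% and 6.11% of all genes. These comparisons share the HyB libraries with each other and the parents' libraries with the contrast of the monokaryons.

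Including members without a PC9 value gave 180 higher and 52 lower of 359 in HyB against PC15 (limma, with 6.28% and 2.63% of 11647 genes). Gene 1103915 on scaffold 4 had 2.42%, 1.41% and 3.19% in PC15 and 70.6%, 65.7% and 66.9% in HyB, and the HyB libraries stood above all 3 of PC9, which ran from 62.4% to 63.1%. Its difference from PC15 was 65.4 ± 1.45 points (SE, limma adjusted p = 2.24e-14). Gene 1100086 went against this order. It had 32.1%, 31.5% and 30.8% in PC15 and 82.7%, 97.0% and 94.8% in PC9, but 15.4%, 11.1% and 11.7% in HyB, below both parents (-18.7 ± 2.78 points from PC15, SE, limma adjusted p = 0.000146).

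N001 mycelium had the higher level than PC15 in 347 members, than HyB in 350 and than PC9 in 125 of 200, as values that the selection rule had a part in. It lay above the higher of PC15 and PC9 in 120 of 200 members. Within N001, where only primordium and fruitbody can be compared without the selecting libraries, no member passed the test. Of 200 members tested, 0 passed in limma, with 1 at an unadjusted p under 0.05, and 0 of 11140 genes (0%) passed. On the log2 ratio scale the count was also 0, with 3 unadjusted. The median difference over 360 members was -1.26 points, against -0.01 over all genes.

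In PC9 and in N001, where the members were most methylated, nearly all of them were under 1 RPKM of mRNA, with a few abundant exceptions. The share of members under 1 RPKM was 94.6% ± 0.80 in PC9, 96.1% ± 0.28 in N001 mycelium, 96.0% ± 0.32 in primordium and 95.6% ± 0.32 in fruitbody, but 60.6% ± 1.05 in PC15 and 77.2% ± 2.47 in HyB (SD, n = 3). The PC9 share includes the 160 members without a PC9 methylation value, of which 159 had a mean under 1 RPKM there. Of the members at or above 50% mCG in PC9, 160 of 164 had a mean under 1 RPKM. At lower mCG in PC9 it was 1 of 9 under 10%, 9 of 10 from 10 to under 30% and 10 of 17 from 30 to under 50%. The 3 libraries of PC15 held 59.4%, 61.1% and 61.4%, and those of HyB 74.4%, 78.1% and 79.2%. No library of PC15 or of HyB overlapped with another group. Among other TE-distant genes the share stayed between 4.21% and 11% in every library, with medians of 14.2 to 19.7 RPKM by group. Fewer nuclei with an active copy and less RNA per nucleus cannot be told apart in bulk samples.

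**Figure D3:**
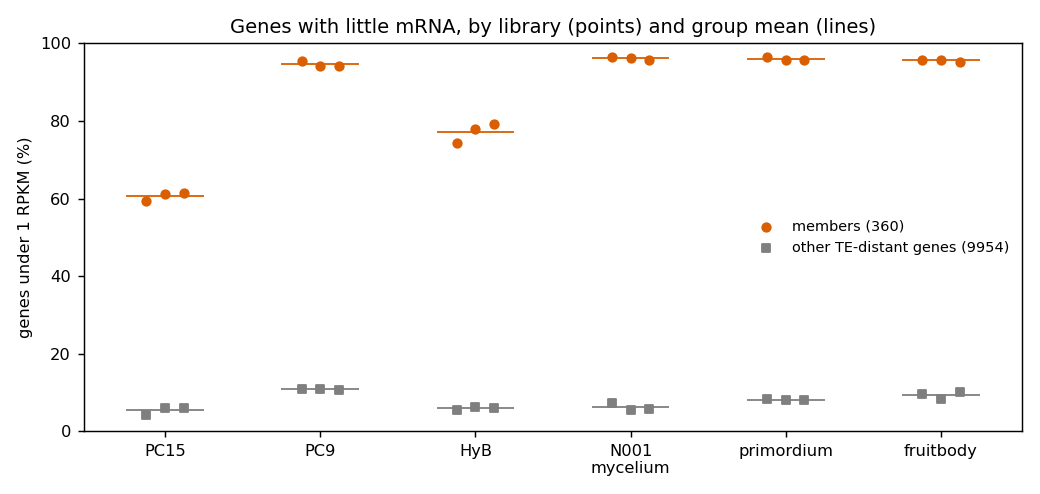
Share of genes (%) under 1 RPKM of mRNA in each of the 18 libraries (points) and the group mean (lines), for the 360 members (orange) and the 9954 other TE-distant genes (grey). The members' mean is 60.6% in PC15 and 77.2% in HyB, and no library of the other groups lies under 94.2%.

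Over the TE-distant genes the share under 1 RPKM in N001 mycelium increased with methylation in the same tissue. It was 5.21% ± 1.03 for genes under 1% mCG, 16.8% ± 2.02 from 1 to under 10%, 33.3% ± 2.56 from 10 to under 30%, 66.7% in each library from 30 to under 50%, 93.9% ± 0.62 from 50 to under 70% and 98.5% ± 0.33 above (SD over 3 libraries). In PC15 the order among members was less even. All 42 members at or above 50% mCG there were under 1 RPKM, against 20 of 35 under 10% mCG, 104 of 199 from 10 to under 30% and 45 of 83 from 30 to under 50%. In HyB 99 of 104 members at or above 50% were under 1 RPKM, and 14 of 25 under 10%.

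Because so many members were near zero, only 142 of 360 reached 1 RPKM in at least 3 libraries and were tested. Of these, 44 passed through PC15 alone and 1 through PC9 alone, and these had to differ, so the counts that follow are descriptions and not support. In 187 members no library reached 1 RPKM, and in 26 no read was counted in any of the 18. The median difference between PC9 and PC15 over all 360 members was -0.36 on the log2(RPKM + 1) scale, against -0.21 over all 11820 genes, and the lower quartile of the members was -1.98. Members without a single mRNA read in any library of the group numbered 56 in PC15, 215 in PC9, 117 in HyB, 216 in N001 mycelium, 220 in primordium and 215 in fruitbody.

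Among the 142 tested members, mRNA was higher in PC9 than in PC15 in 15 and lower in 121 (limma, adjusted p under 0.05 over 10928 genes, of which 16.1% were higher and 30.6% lower). Without PC15 replicate 2 or replicate 3 the counts called were 89 of 97 and 89 of 98 tested, since fewer members then reached 1 RPKM in 3 libraries. In HyB, 13 were higher and 103 lower than in PC15, with 19% and 28% of all genes, and 82 were higher and 8 lower than in PC9, with 23.3% and 14.9%. Without PC15 replicates 1, 2 or 3 in turn, 64, 64 and 67 members were called between HyB and PC15, again with 97 or 98 tested. The comparisons share their libraries. The median over all genes tested was itself -0.23 between PC9 and PC15 and -0.20 between HyB and PC15 on this scale.

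The transcripts found in PC15 and missing in PC9 were large in range. Gene 159677 on scaffold 6 (411012 to 411596) had 92.0, 81.5 and 68.5 RPKM in PC15, 0.138, 0 and 0 in PC9 and 82.7, 36.9 and 38.4 in HyB. In the 9 N001 libraries it had at most 0.073. Its difference between PC9 and PC15 was -6.28 on the log2(RPKM + 1) scale (SE 0.24, limma adjusted p = 4.85e-12). Its methylation ran the other way, with 27.6% to 30.1% in PC15, 35.4% to 40.7% in HyB, 76.3% to 77.4% in PC9 and 71.7% to 73.8% in N001 mycelium.

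Gene 1081007 on scaffold 1 (4225855 to 4227393) had 30.5, 28.7 and 25.2 RPKM in PC15 and 58.2, 36.2 and 36.7 in HyB, but at most 0.0583 in PC9 and N001. Gene 22772 on scaffold 2 (2231581 to 2233142) had 4.53, 22.5 and 23.1 RPKM in PC15, 20.3, 37.4 and 42.9 in HyB and 0 in all 3 PC9 libraries, at least 1248-fold lower than HyB against a floor of 3 reads over the PC9 libraries. Its mCG was 3.12% to 3.76% in PC15, 35.8% to 37.8% in HyB and 61.1% to 62.2% in PC9. HyB did not overlap with PC9 or with N001 in any of these genes.

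A few members were the reverse, with mRNA in PC9 and little in PC15. Gene 1094218 on scaffold 7 (3098527 to 3099388), the second most abundant member, had 4.92, 0 and 0.197 RPKM in PC15 and 142, 287 and 264 in PC9. It had 131, 70.2 and 68.9 in HyB and 50.1 to 125 in the 9 N001 libraries. The difference between PC9 and PC15 was 6.85 on the log2(RPKM + 1) scale (SE 0.51, limma adjusted p = 1.56e-08). Its mCG was 8.48% to 8.95% in PC15, 30.2% to 32.6% in PC9 and 51.8% to 54.0% in N001 mycelium, so the strain with less methylation also had less mRNA. Gene 1053480, at 0.242, 0.141 and 0.0601 RPKM in PC15 and 9.97, 11.6 and 9.25 in PC9, had 28.7% to 32.4% mCG in PC15 and 0.50% to 0.93% in PC9. It was called higher in PC9 (3.30, SE 0.20, limma adjusted p = 1.16e-09).

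For both calls between the monokaryons, 174 members were more methylated in PC9. Of these 57 had less mRNA there, 9 had more, 2 were not called and 106 could not be tested for mRNA. Among the 547 other genes that were more methylated in PC9, 384 were tested for mRNA, of which 225 had less and 35 more. The tested members had in part passed the filter through PC15 alone, so the proportions are not compared. Of the 17 that were less methylated in PC9, 6 had more mRNA there, 2 had less, 2 were not called and 7 were not tested. Of 268 other genes that were less methylated there, 252 were tested, with 75 higher and 50 lower in mRNA. Among the 160 members without a PC9 value, 62 had less mRNA in PC9 and none more, 1 was not called and 97 were not tested.

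**Figure D4:**
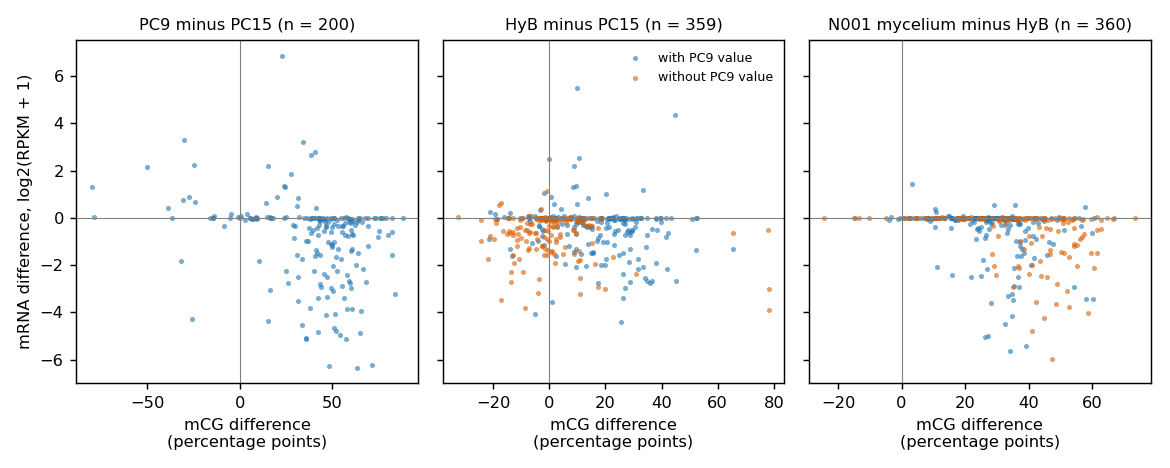
Difference in mean CG methylation (percentage points, horizontal) against the difference in mean log2(RPKM + 1) of mRNA (vertical) for each member in 3 comparisons, with members that have a PC9 value in blue and those without in orange. Between PC9 and PC15 most of the 200 points lie to the right of zero and at or below zero on the vertical axis, and the 3 panels share libraries.

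N001 mycelium and HyB are both dikaryons, and 81 of the 142 tested members had less mRNA in N001 mycelium and 0 more (limma, with 7.47% of 10928 genes lower and 3.61% higher). The members were chosen by their methylation in N001 mycelium, where 346 of 360 had a mean under 1 RPKM. Most tested members therefore passed the filter through other groups, and these counts are descriptions and not support. The largest fall was that of gene 1016424 on scaffold 1 (3747922 to 3748198), with 109, 45.4 and 45.4 RPKM in HyB and 0 in all 3 N001 mycelium libraries, at least 464-fold lower against a floor of 3 reads over these libraries. Its mCG was 10.9%, 7.69% and 8.83% in HyB and 56.6%, 56.1% and 57.0% in N001 mycelium. Genes 159677, 1081007 and 22772 fell by 5.62, 5.44 and 5.03 on the log2(RPKM + 1) scale. Over all 360 members the median difference was -0.03, and over all genes -0.04.

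From mycelium to primordium, 3 tested members rose and 1 fell (limma, with 15.8% and 21.8% of 10928 genes). Many of the tested members had passed the filter through PC15 and had almost no mRNA in N001, so nothing is read from the low count. Between primordium and fruitbody, 0 of 142 tested members passed in limma, with 1 at an unadjusted p under 0.05, and 0.275% of all genes passed. edgeR's quasi-likelihood test on recovered reads also called 0 of 178, with 6 unadjusted.

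The most abundant member by far changed with development. Gene 173637 on scaffold 4 (3571708 to 3572451) had 3.83, 0.976 and 1.71 RPKM in PC15, 7.94, 40.8 and 53.6 in PC9 and 79.4, 48.7 and 53.2 in HyB. In N001 it had 272, 303 and 50.8 in mycelium, 14530, 8096 and 8179 in primordium and 6616, 9107 and 4363 in fruitbody. All primordium libraries stood above all mycelium libraries, and the rise was 5.92 on the log2(RPKM + 1) scale (SE 0.67, limma adjusted p = 7.47e-06). Its mCG did not move with this, at 49.2% to 51.6% in N001 mycelium, 49.4% and 49.7% in primordium and 47.0% to 50.2% in fruitbody, and it was 2.21% to 2.87% in PC15, where the mRNA was lowest.

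The gene next to it, 1083415, rose too, from 6.46, 6.28 and 4.75 RPKM in mycelium to 49.6, 53.2 and 52.7 in primordium (2.96, SE 0.27, limma adjusted p = 7.81e-07). Gene 1043282 on scaffold 6 rose from 4.67, 5.68 and 5.49 to 18.7, 14.3 and 17.4 RPKM (1.5, SE 0.26, limma adjusted p = 0.000376), and 1107060 fell by 0.78 (SE 0.23, limma adjusted p = 0.0152). The libraries of mycelium and primordium did not overlap in any of these. The call of 1107060 was lost without N001 mycelium replicate 1 and without primordium replicate 2. It was also lost when the nearly alike replicates 2 and 3 of HyB and of primordium were merged.

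Genes 173637, 1083415 and 1103915 belong to a run of 7 members over 11.3 kb on scaffold 4, at 3563068 to 3574382, in which unlike patterns stood side by side. Gene 167688 in the same run had 19.8, 10.6 and 12.6 RPKM in PC15 and 0 in all libraries of HyB and PC9, at least 636-fold lower in HyB against a floor of 3 reads over its libraries (limma adjusted p = 2.52e-11). It passed the mRNA filter through PC15 alone and had to differ, so this p-value is not support. Its mCG was 8.56%, 5.79% and 4.70% in PC15 and 82.8%, 83.5% and 87.1% in HyB, with no PC9 value. The neighbours 1103907, 1103908 and 157607, chosen after their values were seen, had at most 6.64% in PC15 and 65.1% to 82.9% in HyB, and no mRNA read in HyB or N001. At the other end of the run, 1083415 and 173637 had 38.2% to 49.7% in HyB and mRNA in every HyB library.

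Small RNA reads in the members were concentrated in a few genes. Small RNA values are reads per 1000000 gene and TE reads of the library (RPM), and the small RNA libraries held 191411 to 5746479 such reads. The members took 31% to 32.2% of the reads in PC9, 1.19% to 1.36% in PC15, 2.17% to 5.56% in HyB and 5.43% to 9.86% in the N001 libraries. Genes 157625, 1106041, 1109170 and 1084862 together held 97.6% of the members' reads in PC9, 75.2% in HyB and 76.6% to 78.7% in N001, but 4.07% in PC15 (means over 3 libraries). In PC9 the share of TE reads was 32.3% in replicate 1 and 6.93% and 7.17% in the others, so replicate 1 stood apart.

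Gene 157625 on scaffold 5 (3542963 to 3544555) had 143, 54.7 and 26.6 RPM in PC15 and 189496, 223779 and 222871 RPM in PC9. In HyB it had 9895, 14330 and 22944 RPM, and in N001 22666 to 25289 in mycelium, 24740 to 36771 in primordium and 35254 to 41508 in fruitbody. The PC15 libraries lay far below all others, with a log2 difference of 11.62 between PC9 and PC15 (SE 1.54, edgeR adjusted p = 2.15e-05). Its mCG was high everywhere, from 74.4% to 92.2%, and it had at most 0.213 RPKM of mRNA in any library.

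Gene 1106041 on scaffold 6 (2542867 to 2543232) had 59.9, 10.9 and 8.31 RPM in PC15 and 83455, 63186 and 59479 RPM in PC9 (log2 difference 11.72, SE 1.54, edgeR adjusted p = 2.02e-05), with mCG of 23.9% to 26.7% in PC15 and 71.6% to 72.4% in PC9. Gene 1109170 on scaffold 11 (3726 to 8706) had 368, 258 and 497 RPM in PC15 and 20151, 13100 and 13986 RPM in PC9 (log2 difference 5.86, SE 1.003, edgeR adjusted p = 0.000266). Its mCG was 71.1% to 72.8% in PC15 and 52.4% to 58.7% in PC9. So the small RNA of these 3 genes was higher in PC9, where the methylation was higher than in PC15 in 1106041 and lower in 1109170. In 157625 the methylation was high in both.

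**Figure D5:**
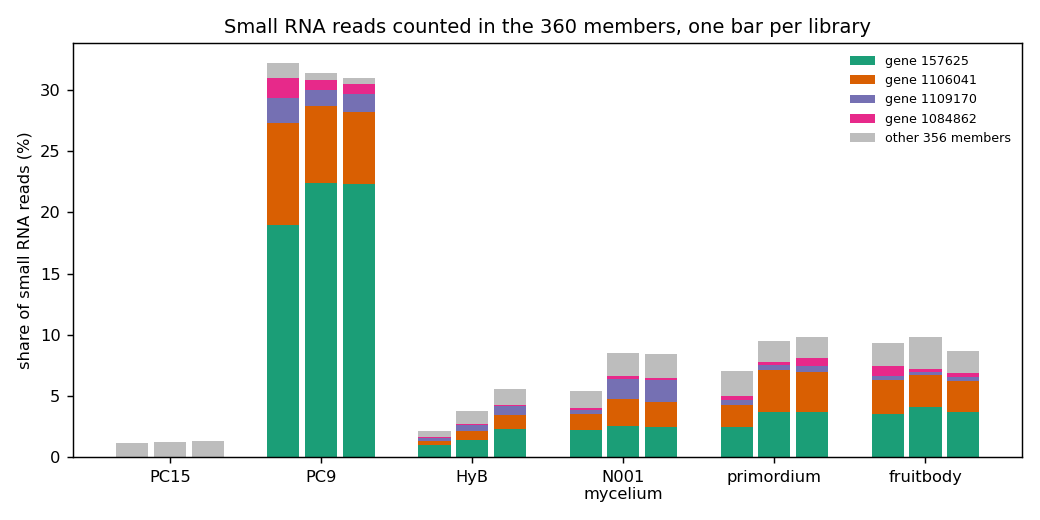
Share of the gene and TE small RNA reads (%) counted in the 360 members, as 1 stacked bar per library, split into the 4 members with the highest mean and the other 356. The bars of PC9 reach 32.2% and those of PC15 at most 1.36%, with nearly all of the difference in the 4 named genes.

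The other 356 members held 4949 to 13071 RPM together in the PC15, PC9 and HyB libraries, 13519 to 19499 in N001 mycelium and 17039 to 25793 in primordium and fruitbody. The median per gene length was 2.62 ± 0.20 RPM per kb in PC15, 0.28 ± 0.26 in PC9, 2.21 ± 1.05 in HyB and 2.26 ± 0.14 in N001 mycelium, against 4.53 ± 1.16 in primordium and 8.19 ± 3.29 in fruitbody (SD of library medians, n = 3). Other TE-distant genes had 4.61 to 8.09 RPM per kb by group. The 17 members at or above 50% mCG in both monokaryons had more than the rest, at 13.6 in PC15, 10.5 in PC9, 26.2 in HyB and 101 in N001 mycelium, and those without a PC9 value had 0.64 in N001 mycelium.

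With edgeR's quasi-likelihood test, 174 of 360 members had enough reads. The read filter can keep a gene through the libraries of 1 group alone, and such genes had to differ. How many members passed so was not counted. The small RNA counts here and below are therefore descriptions and not support. Between PC9 and PC15, 26 were higher and 61 lower (14.6% and 15.3% of 6670 genes), of which 30 of the lower had no PC9 methylation value. Between HyB and PC15, 28 were higher and 24 lower (14.7% and 11.3%), and between HyB and PC9, 59 were higher and 15 lower (15.8% and 10.1%). Scaled to the total of gene reads in place of TMM, the median of all genes moved to -0.98 for PC9 against PC15. For HyB against PC9 it moved to 0.77. The calls among all genes shifted the same way as those of the members. The members' counts became 18 higher and 99 lower (3.12% and 30.1% of all genes) between PC9 and PC15. Between HyB and PC9 they became 97 higher and 7 lower (25.7% and 2.01%). TE reads were 66.8% to 68.8% of the reads in PC15 and 6.93% to 32.3% in PC9, and were not in these totals. Scaling to gene and TE reads together was not tried, so the shifts hold for totals of gene reads only. Without PC9 replicate 1, which stood apart, 108 members were called between PC9 and PC15 and 109 between HyB and PC9. The comparisons share libraries.

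The small RNA of gene 1107865 on scaffold 8 (2143415 to 2145053) came almost wholly from HyB, with 1006, 1145 and 1601 reads in the HyB libraries (832, 1478 and 1441 RPM) and 0 in every PC9, N001 mycelium and fruitbody library. PC15 had 13, 0 and 2 reads, and 1 primordium library had 1. HyB was at least 3260-fold above PC9 and at least 900-fold above N001 mycelium against a floor of 3 reads over each group (edgeR adjusted p = 2.77e-06 and 3.37e-05). Gene 1107865 could pass the read filter through HyB alone, so it had to differ and these p-values are not support. Its mCG was 13.5% to 23% in HyB and 17.6% to 22.6% in PC15, which overlapped, and 55.6% to 57.9% in N001 mycelium. Gene 1106392 was the reverse of the abundant genes, with 286, 206 and 174 RPM in PC15 and 0 in PC9, at least 579-fold lower.

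Between N001 mycelium and HyB, 1 tested member was higher and 12 lower (edgeR, with 1.29% and 3% of 6670 genes). The 1 was gene 170030, with 10.7, 16.8 and 28.8 RPM in HyB and 132, 113 and 137 in N001 mycelium (log2 difference 2.01, SE 0.44, edgeR adjusted p = 0.0109). The call was lost without HyB replicate 1. Without N001 mycelium replicates 1, 2 or 3 the members called numbered 5, 6 and 7.

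From N001 mycelium to primordium, 32 tested members had more small RNA and 0 less (edgeR, with 3.94% and 2.79% of 6670 genes). This count was unstable. Without N001 mycelium replicates 1, 2 or 3 it was 21, 6 and 5, and without primordium replicates 1, 2 or 3 it was 17, 6 and 6, each time with 0 lower. Gene 22756, in the longest run, had 1.51, 0 and 0 RPM in mycelium and 17.7, 18.2 and 24.1 in primordium, from 1, 0 and 0 and 9, 8 and 8 reads. Gene 173637 had 49.97, 23.9 and 14.8 RPM in mycelium and 1389, 539 and 424 in primordium (log2 difference 5.17, SE 0.69, edgeR adjusted p = 0.000186), beside its mRNA rise, and whether these are fragments of that mRNA was not tested. Between primordium and fruitbody, 0 of 174 passed in edgeR, with 21 at an unadjusted p under 0.05, and 0 passed in DESeq2, with 38 unadjusted, against 0.045% of all genes.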

How the data were processed

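The members, comparison groups and tests were chosen with earlier results of these data known. Per the file headers, the deposited gene methylation is a fraction for CG sites, shown here in percent, with unknown coverage. Gene mRNA was deposited as RPKM and small RNA as read counts per gene and TE copy, per the file headers. FastQC, STAR 2.3.16 (mRNA) and BS-Seeker2 (bisulfite) are named in the submitters' processing notes. Small RNA tools, genome build, counter, strand and treatment of reads with several matches are not given in the sources used here. Reads of similar copies, and those of 4 members that overlap another gene, are uncertain for that reason. TE copies came from the small RNA table.

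RNA and DNA came from fungal extraction kits (E.Z.N.A.), per the labels' protocols. The RPKM were whole reads scaled by length and total (95.8% to 96.0% of values within 0.01 reads), which gave 19628882 to 30123572 reads per mRNA library. The mRNA counts of replicates 2 and 3 were nearly alike in HyB (chi-square over degrees of freedom 3.77) and in primordium (1.56), where other replicate pairs gave 25.7 to 515. They were kept apart, so mRNA p-values, SEs and SDs with HyB or primordium are too small if these pairs are not independent. Intervals and floors of 3 reads cover counting error only.

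Each test was fitted across all 6 groups and all genes with Benjamini-Hochberg adjustment and a threshold of 0.05. Methylation in percent (genes with a value in every library) and log2(RPKM + 1) (genes with at least 1 RPKM in at least 3 libraries) were tested with limma 3.58.1. Small RNA counts that passed filterByExpr were tested with edgeR 4.0.16 (quasi-likelihood, TMM), in R 4.3.3, with DESeq2 1.42.0 as an alternative. The scripts were tested on simulated data. Genes named are up to 4 with the largest rise and fall past the threshold with libraries that did not overlap, per assay and comparison, the 4 with the highest mRNA and small RNA, the longest runs and the genes next to the bounds. Of the gene numbers, 0 matched any of the 11849 genes of the RefSeq table, so it gave no names or sequences. TE methylation and TE mRNA tables were not used here.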

Additional observations from a re-analysis of the deposited data

How the results depend on the processing

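The methylation counts stayed within 1.5 times of their value under each alternative scale, filter and left-out library: 188 to 190 for PC9 against PC15, 154 to 157 for HyB against PC15, 178 to 182 for HyB against PC9 and 0 for fruitbody against primordium with 1 library left out. For mRNA, leaving out 1 library gave 89 to 138 (PC9 against PC15), 64 to 118 (HyB against PC15), 84 to 89 (HyB against PC9), 75 to 79 (N001 mycelium against HyB), 3 to 4 (primordium) and 0 (fruitbody). For small RNA it gave 78 to 108, 41 to 60, 58 to 109, 5 to 14, 5 to 21 and 0 in the same order. Without a filter on low mRNA, 234 of 360 members were called between PC9 and PC15 and 203 between HyB and PC15, as more members entered. edgeR on recovered reads called 7 between primordium and mycelium, where limma called 4. A filter of 10 small RNA reads in all, which tested 333 members, called 147 between PC9 and PC15 and 113 between HyB and PC9. Scaling to totals of gene reads called 24 between N001 mycelium and HyB. At an mCG of at least 0.7, 72.3% of members stood next to another and the median share under 1 RPKM was 98.0%. Under 0.1 RPKM it was 91.0%. For the last 6 changes the cause was not tested. Of 908 repeats of 89 results for named genes, 873 kept their side of the threshold and 35 lost it, none with a reversed direction. Repeats in which the gene failed the filter or had no adjusted p in DESeq2 were not counted, so these numbers overstate the stability. With the nearly identical mRNA libraries merged, an alternative chosen after seeing the data, 135, 106, 87, 78, 3 and 0 were called.

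The labels do not say that a replicate number marks a shared batch or culture, and the correlations of same-numbered libraries' deviations were not all above 0.1 (-0.27 to 0.66 in methylation, -0.07 to 0.51 in mRNA and -0.17 to 0.22 in small RNA), so the numbers were not taken as pairs. The mRNA values hold a hint of a link. The median was 0.18 for same numbers, with 32 of 45 over 0.1, and -0.10 for different ones, with 18 of 90, and 14 of 18 libraries correlated best with their own number (9 of 17 in methylation and 12 of 18 in small RNA). With a replicate block, 190, 156, 182 and 0 members were called in methylation, 136, 116, 90, 82, 4 and 0 in mRNA and 85, 53, 68, 14, 27 and 0 in small RNA, all within 1.5 times of the counts without it. Coverage behind methylation is unknown, and the 3 libraries per group limit all tests.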
